A study of Homo sapiens and Mus musculus with 27 samples.

Results

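The 35 genes described here encode the acid-pumping and degradative machinery of the lysosome, and they were followed in 3 datasets of bulk RNA-seq from breast cancer models. They were taken as a fixed list of symbols: 15 subunits and accessory proteins of the vacuolar proton pump (V-ATPase), 6 lysosomal membrane proteins, 10 hydrolases, the soluble cofactors PSAP and NPC2, and the transcription factors TFEB and TFE3. All 35 were found in each table, among 78932 features in the 2 human tables and 25239 in the mouse table, and all 35 passed the filter on low counts in each dataset. The list was assembled with earlier results of these data known, so its direction of change in the human cells is a description and not an independent finding.

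Lysosomes break down proteins, lipids and glycans delivered by endocytosis and autophagy, using hydrolases that work in an acidic lumen. The V-ATPase makes that lumen acidic: its V1 sector hydrolyses ATP in the cytosol and its V0 sector carries protons across the membrane. TFEB and TFE3 are related transcription factors known to bind a short palindromic element in the promoters of many lysosomal genes, and they are held in the cytoplasm by mTORC1 signalling at the lysosome surface.

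Each dataset held 3 groups of 3 libraries. HCC1937 cells, a human breast cancer line, had been given 10 µM TM, 10 µM AMD3100 or vehicle. MDA-MB-231 cells, a human triple-negative breast cancer line, had been given 10 nM bortezomib with 10 µM TM, 10 nM bortezomib with 10 µM AMD3100, or vehicle. 4T1 tumours, from a mouse mammary carcinoma line implanted in Balb/c mice, came from animals given 1 mg/kg bortezomib every 4 days with 0.05 mg/ml TM in the drinking water, the same bortezomib schedule with 5 mg/kg AMD3100 every 2 days, or vehicle. Bortezomib is a proteasome inhibitor and AMD3100 an antagonist of the chemokine receptor CXCR4; TM is named only by these letters in the labels. Bortezomib was never given by itself, and its effect therefore cannot be told apart from that of its partner in either model that received it. The 2 treated groups of a dataset share its vehicle libraries. The titles call the libraries biological replicates but do not say whether they came from separate cultures, so p-values measure the spread between these libraries only.

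Total counts per library ran between 35981504 and 43973262 in HCC1937, 40389469 and 50283398 in MDA-MB-231, and 38407536 and 50735374 in 4T1. In HCC1937, AMD3100 replicate 1 stood apart, with 19.9% of counts from mitochondrial genes against 10.5% to 11.6% in the other 8 libraries, and with 20639 features detected against 29335 or more. It was left out of the HCC1937 fit, which leaves 2 AMD3100 libraries, and counts of members called are also given with it. The keratins KRT8 and KRT18 were abundant in HCC1937, but the other epithelial markers checked were at or near 0 in all 9 libraries: EPCAM reached at most 0.514 CPM (counts scaled by the effective library total), CDH1 1.93 and KRT5 0.103, while VIM stood at 283 to 749 CPM. The identity of the HCC1937 line was not tested further. MDA-MB-231 libraries carried high VIM (881 to 982 CPM) with KRT5 at 0 and CDH1 at 0.159 CPM or less.

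The element bound by TFEB and TFE3 was looked for in RefSeq promoter sequences on GRCh38.p14 (250 bases before to 50 after the annotated start), which held 26 of the 35 members. The exact 8 letters TCACGTGA, which read the same on both strands, occurred in 5 of the 26 and in 1.18% of the 27305 symbols with a promoter. The shorter core CACGTG, which lies inside it, occurred in 9 of the 26 and in 8.78% of all symbols. The 5 promoters with TCACGTGA are shown from 65 to 6 bases before the start, 5′ to 3′ on the gene's strand, with that element in capitals. They serve V1 subunit G1, the abundant membrane glycoprotein LAMP1, V0 subunit d1, the calcium channel MCOLN1 and the protective protein CTSA.
ATP6V1G1, chr9:114587704-114587763, plus strand: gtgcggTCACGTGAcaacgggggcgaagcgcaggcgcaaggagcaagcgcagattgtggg
LAMP1, chr13:113297174-113297233, plus strand: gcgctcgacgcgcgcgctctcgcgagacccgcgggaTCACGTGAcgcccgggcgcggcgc
ATP6V0D1, chr16:67481163-67481222, minus strand: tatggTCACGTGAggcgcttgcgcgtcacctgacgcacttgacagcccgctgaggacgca
MCOLN1, chr19:7522559-7522618, plus strand: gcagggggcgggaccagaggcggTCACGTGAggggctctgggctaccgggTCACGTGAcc
CTSA, chr20:45891270-45891329, plus strand: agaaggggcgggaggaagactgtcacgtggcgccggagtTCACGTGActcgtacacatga
The element stands within the 65 bases before the start in each. MCOLN1 carries it at 42 and 15 bases before, and LAMP1 at 29 bases before and again at 2 bases before, beyond the stretch shown. ATP6V1G1, ATP6V0D1 and LAMP1 were called higher in HCC1937 with TM and in both MDA-MB-231 arms. MCOLN1 was called lower in HCC1937 with TM and higher in both MDA-MB-231 arms, and CTSA was called higher only in MDA-MB-231 with bortezomib and AMD3100. Of all 35 members, 21 were called higher in both HCC1937 with TM and MDA-MB-231 with bortezomib and TM. A link between the element and these calls was not tested.

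In HCC1937 cells given TM, most of the pump and several hydrolases were more abundant than in vehicle cells, by modest factors. NEU1, CTSD and CTSL showed the largest increases, and CTSZ, MCOLN1 and TPP1 were lower. Of the 35 members, 24 were called higher and 3 lower at an adjusted p under 0.05, in a comparison where 40.8% of the 20398 genes tested were called, 19.4% higher and 21.4% lower. By role, the members called higher were 4 of 5 V0 subunits, 7 of 8 V1 subunits, 1 of 2 accessory proteins, 5 of 6 membrane proteins, 6 of 12 hydrolases and cofactors, and TFE3. With AMD3100 replicate 1 in the fit, 4 members were called, all higher (NEU1, SCARB2, ATP6V0D1 and ATP6V0E1), and 1376 genes in all (7.07%) were called instead of 8318. The role counts then were 2 of 5 V0 subunits, 0 of 8 V1 subunits, 1 of 6 membrane proteins and 1 of 12 hydrolases and cofactors. LAMP2 and ATP6V1G1 lost their calls in 7 and 6 of 14 alternative fits in that order.

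**Figure D1:**
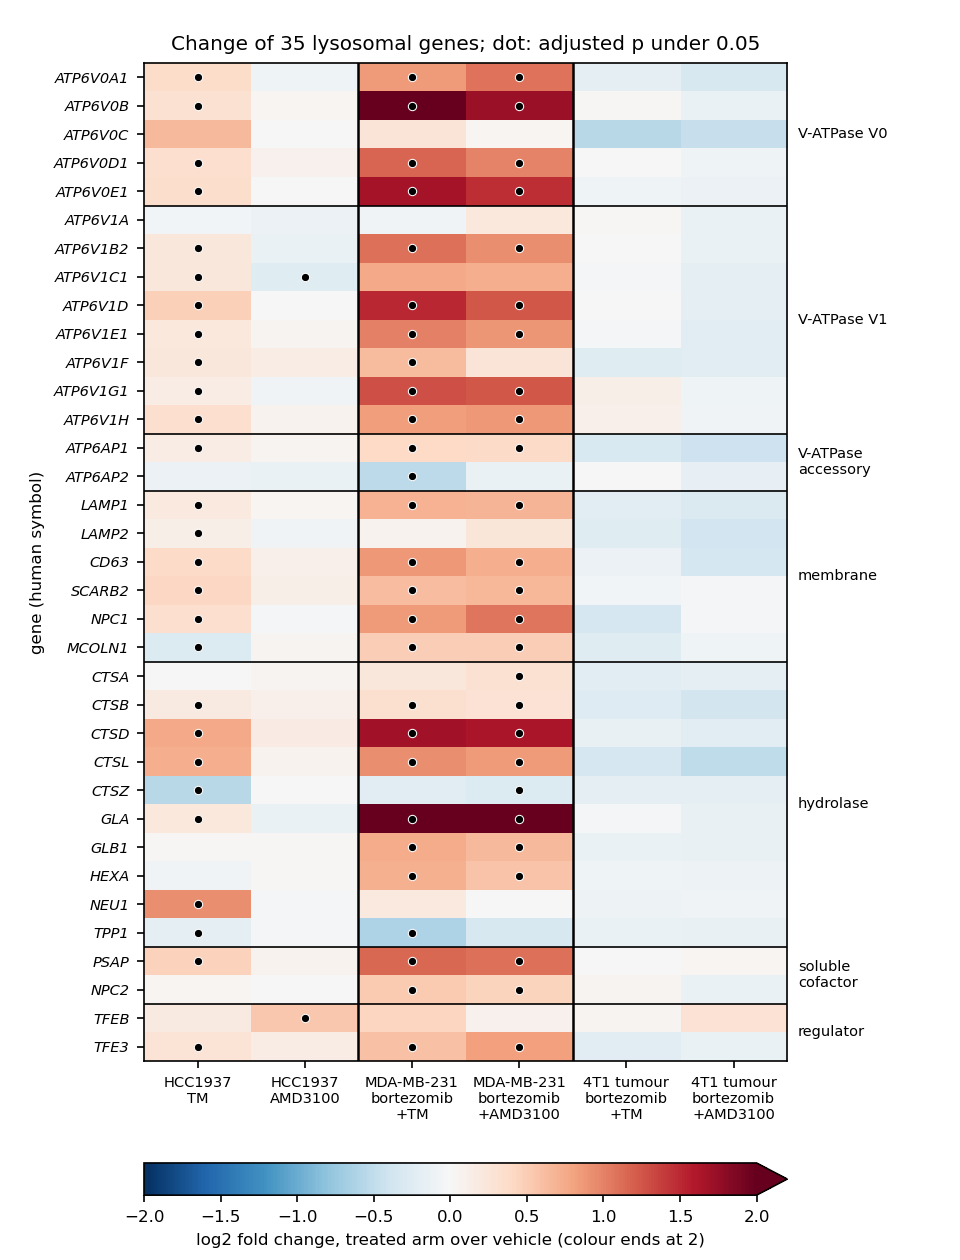
Log2 fold change of each of the 35 genes (down the page, grouped by role, human symbols) in the treated arm over vehicle in 3 datasets (across); red is higher in the treated arm, blue lower, the colour scale ends at 2, and a black dot marks an adjusted p under 0.05. Most genes are red and dotted in the HCC1937 TM column and in both MDA-MB-231 columns, the HCC1937 AMD3100 column has 2 dots, and the 4T1 columns have none.

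The sialidase NEU1 (chr6:31857659-31862906, GRCh38) had 129, 126 and 133 CPM in TM libraries, against 69.6, 65.9 and 67.8 CPM in vehicle libraries. All 3 TM libraries lay far above the vehicle libraries, and the log2 change was 0.94 (SE 0.05, adjusted p = 7.7e-15). The aspartic protease CTSD (chr11:1752752-1764573) had 212, 242 and 231 CPM with TM, against 138, 130 and 138 CPM with vehicle, a log2 change of 0.75 (SE 0.05, adjusted p = 3.7e-13). The groups were again apart, with more scatter in the TM libraries. The cysteine protease CTSL (chr9:87725519-87731393) had 216, 222 and 214 CPM with TM, against 132, 130 and 134 CPM with vehicle, a log2 change of 0.72 (SE 0.04, adjusted p = 1.9e-13). The carboxypeptidase CTSZ (chr20:58995185-59007247) went the other way, with 868, 865 and 863 CPM in TM libraries and 1276, 1231 and 1301 CPM in vehicle libraries. Its log2 change was -0.55 (SE 0.03, adjusted p = 6.3e-14), and the 3 TM libraries were almost level with each other.

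PSAP, the precursor of the saposins that present sphingolipids to their hydrolases, had 799, 819 and 826 CPM with TM, against 600, 574 and 594 CPM with vehicle (log2 change 0.47, SE 0.03, adjusted p = 7.4e-12). ATP6V1D, a subunit of the central rotor of V1, had 59.4, 59.7 and 61.1 CPM with TM, against 43.4, 42.6 and 43.1 CPM with vehicle (log2 change 0.48, SE 0.06, adjusted p = 7.8e-08). Neither gene had overlapping groups, and the spread within each group was small beside the gap. The membrane proteins followed: SCARB2, the receptor that carries glucocerebrosidase to lysosomes, had 69.3, 69.8 and 72.1 CPM with TM, against 51.5, 56.1 and 51.4 CPM with vehicle (log2 change 0.41). The tetraspanin CD63 had 604, 604 and 580 CPM with TM, against 467, 446 and 464 CPM with vehicle (log2 change 0.38). Both membrane proteins passed the test, with adjusted p of 6.5e-07 for SCARB2 and 2.2e-09 for CD63.

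TFE3 had 81.4, 87.7 and 80.7 CPM with TM, against 71.2, 67.8 and 67.8 CPM with vehicle, a log2 change of 0.27 (SE 0.06, adjusted p = 0.00034). TFEB had 24.4, 27.4 and 24.6 CPM with TM, against 21.7, 21.3 and 24.2 CPM with vehicle. Its TM libraries lay just above its vehicle libraries, but the log2 change of 0.18 (SE 0.08) did not pass the test (adjusted p = 0.061). The remaining members called higher had log2 changes between 0.12 (LAMP2) and 0.37 (ATP6V0A1). The median over the 35 members was 0.22 on the log2 scale, against 0.00 over all genes tested. MCOLN1 had a log2 change of -0.28 and TPP1, a tripeptidyl peptidase, of -0.18, and both were called lower. The catalytic subunit ATP6V1A (log2 change -0.05), the hydrolases CTSA, GLB1 and HEXA, the cholesterol-binding cofactor NPC2 and the accessory protein ATP6AP2 were not called.

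**Figure D2:**
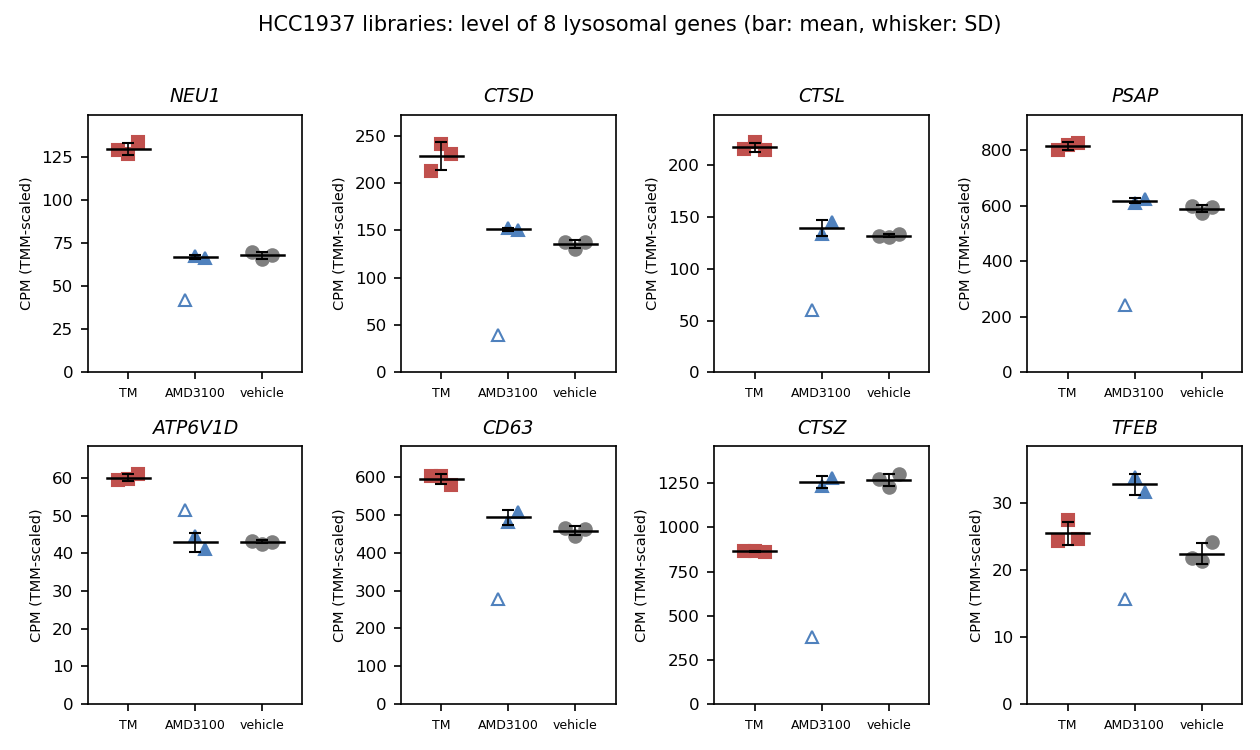
Level in CPM (vertical axis of each panel, starting at 0) of 8 lysosomal genes in the 9 HCC1937 libraries, with 1 point per library; bars are group means and whiskers SDs, and the open triangle is AMD3100 replicate 1, which the means leave out. NEU1, CTSD, CTSL, PSAP, ATP6V1D and CD63 are highest with TM, CTSZ is lowest with TM, and TFEB is highest in the 2 AMD3100 libraries kept.

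In HCC1937 cells given AMD3100 the lysosomal genes stayed close to vehicle, apart from TFEB. Of the 35 members, 1 was called higher (TFEB) and 1 lower (ATP6V1C1), where 8.14% of the genes tested were called, 5.39% higher and 2.76% lower. TFEB had 33.9 and 31.6 CPM in the 2 AMD3100 libraries kept, against 21.7, 21.3 and 24.2 CPM in vehicle libraries, a log2 change of 0.55 (SE 0.09, adjusted p = 0.00019). The AMD3100 library left out had 15.7 CPM, below every vehicle library, and with it in the fit the change was 0.28 and not called, in a fit that called 0 of 19461 genes (0%). ATP6V1C1, a stator subunit of V1, had 64.0 and 61.1 CPM with AMD3100 (78.3 in the library left out), against 71.0, 80.2 and 71.7 CPM with vehicle. Its log2 change was -0.25 (SE 0.06, adjusted p = 0.014), and it was not called in that fit either. The ATP6V1C1 call was lost in 4 of 13 alternative fits. With a correction for transcript GC content its change was -0.12 (adjusted p = 0.26), and without vehicle replicate 2 it was -0.21 (adjusted p = 0.058). Correlations of gene deviations with GC content ran from -0.68 to 0.71 over all HCC1937 libraries.

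CTSD had 152 and 150 CPM with AMD3100, against 138, 130 and 138 CPM with vehicle, and the log2 change of 0.16 (SE 0.05) had an adjusted p of 0.062. ATP6V1F, a small V1 subunit, had 113 and 123 CPM with AMD3100, against 107, 105 and 109 CPM with vehicle, with a log2 change of 0.14 (SE 0.05, adjusted p = 0.092). TFE3 had 70.2 and 82.3 CPM with AMD3100, against 71.2, 67.8 and 67.8 CPM with vehicle (log2 change 0.15, adjusted p = 0.19), and its groups overlapped. In the library left out CTSD stood at 39.0 CPM, ATP6V1F at 58.5 and TFE3 at 36.5, each below all other HCC1937 libraries. Over the 35 members the median log2 change was 0.02, against 0.01 over all genes tested.

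Set directly against each other, HCC1937 cells given AMD3100 had lower levels of most members than cells given TM. Of the members, 20 were called lower and 3 higher (CTSZ, MCOLN1 and TFEB). In this comparison 36.5% of genes tested were called, 16.8% lower and 19.7% higher. Lysosomal hydrolases outside the member list went the other way. Of 33 tested, 15 were called higher and 6 lower with AMD3100, with a median log2 change of 0.24. NEU1 had 67.5 and 66.2 CPM with AMD3100 and 129, 126 and 133 CPM with TM, a log2 change of -0.96 (SE 0.06, adjusted p = 1.1e-13). The AMD3100 libraries kept lay below all TM libraries for CTSL (134 and 145 CPM), ATP6V1D (44.6 and 41.2 CPM) and CTSD, and above them for CTSZ (1235 and 1280 CPM). CTSL changed by -0.64, CTSD by -0.60 and ATP6V1D by -0.49 on the log2 scale, while CTSZ changed by 0.54. ATP6V1C1 had 64.0 and 61.1 CPM with AMD3100 and 91.1, 85.0 and 85.8 CPM with TM, a log2 change of -0.48. With AMD3100 replicate 1 in the fit 6 members were called, all lower, where 8.22% of genes were called. Of the other 33 hydrolases, 4 were then called higher and 3 lower.

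In MDA-MB-231 cells given bortezomib with TM, the members with the largest increases were the lipid hydrolase GLA, the V0 proteolipid ATP6V0B, the protease CTSD and the V0 subunit ATP6V0E1. Of the 35 members, 25 were called higher and 2 lower (TPP1 and ATP6AP2), where 51.7% of the 16498 genes tested were called, 24.1% higher and 27.6% lower. With bortezomib and AMD3100, 25 were called higher and 1 lower (CTSZ), where 46.5% of genes were called, 22.3% higher and 24.2% lower. The CTSZ call (log2 change -0.28) was lost in 9 of 13 alternative fits. The member medians were 0.71 and 0.68 on the log2 scale in the TM and AMD3100 arms, against -0.09 and -0.05 over all genes tested.

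GLA, the alpha-galactosidase A lost in Fabry disease (chrX:101397803-101408012), had 323, 326 and 300 CPM with bortezomib and TM and 283, 287 and 298 CPM with bortezomib and AMD3100, against 42.8, 41.4 and 45.6 CPM with vehicle. Every treated library lay far above every vehicle library. The log2 change was 2.87 (SE 0.09, adjusted p = 1.85e-09) in the TM arm, a 7.31-fold difference, and 2.74 (SE 0.09, adjusted p = 2.8e-09) in the AMD3100 arm. CTSD had 376, 362 and 287 CPM with bortezomib and TM and 311, 324 and 358 CPM with bortezomib and AMD3100, against 103, 119 and 96.8 CPM with vehicle. Its log2 change was 1.68 (SE 0.12, adjusted p = 7.6e-07) in the TM arm and 1.64 (SE 0.12, adjusted p = 1.2e-06) in the AMD3100 arm. PSAP had 3004, 2914 and 2591 CPM with bortezomib and TM and 2556, 2667 and 2972 CPM with bortezomib and AMD3100, against 1263, 1396 and 1169 CPM with vehicle (log2 changes 1.15 and 1.10 in the TM and AMD3100 arms). Treated libraries did not overlap vehicle libraries for either gene, and PSAP adjusted p were 3.4e-06 and 6.1e-06 in the TM and AMD3100 arms.

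Among V0 subunits, the proteolipid ring member ATP6V0B (chr1:43974487-43978295) had 618, 583 and 435 CPM with bortezomib and TM and 429, 416 and 485 CPM with bortezomib and AMD3100, against 123, 158 and 119 CPM with vehicle. Its log2 change was 2.03 (SE 0.15, adjusted p = 8.1e-07) in the TM arm and 1.73 (SE 0.15, adjusted p = 3.2e-06) in the AMD3100 arm. The small subunit e1, encoded by ATP6V0E1 (chr5:172983757-173035445), had 615, 628 and 631 CPM with bortezomib and TM and 577, 526 and 540 CPM with bortezomib and AMD3100, against 197, 209 and 184 CPM with vehicle (log2 changes 1.67 and 1.48 in the TM and AMD3100 arms, adjusted p = 7e-08 and 1.9e-07). Subunit d1, encoded by ATP6V0D1, which joins V0 to the V1 rotor, had 307, 313 and 226 CPM with bortezomib and TM and 244, 238 and 269 CPM with bortezomib and AMD3100, against 125, 142 and 111 CPM with vehicle. Its log2 changes were 1.16 and 0.99 in the TM and AMD3100 arms, and both passed the test. ATP6V0A1, the a1 subunit that forms the proton half-channels, had 102, 85.2 and 90.8 CPM with bortezomib and TM and 104, 107 and 116 CPM with bortezomib and AMD3100, against 51.5, 54.8 and 48.3 CPM with vehicle (log2 changes 0.85 and 1.08 in the TM and AMD3100 arms). Its treated and vehicle libraries were well apart.

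In V1, the rotor subunit ATP6V1D had 48.1, 58.3 and 121 CPM with bortezomib and TM and 82.8, 63.6 and 43.0 CPM with bortezomib and AMD3100, against 25.2, 22.2 and 32.7 CPM with vehicle. The treated groups lay above vehicle but spread widely, and the log2 change was 1.51 (SE 0.33, adjusted p = 0.0022) in the TM arm and 1.24 (SE 0.33, adjusted p = 0.0080) in the AMD3100 arm. The stator subunit ATP6V1G1 had 69.3, 79.6 and 110 CPM with bortezomib and TM and 85.0, 93.8 and 70.5 CPM with bortezomib and AMD3100, against 34.7, 28.6 and 42.6 CPM with vehicle (log2 changes 1.29 and 1.23). ATP6V1B2, ATP6V1E1 and ATP6V1H were also called higher in both arms, and ATP6V1F in the TM arm alone, where the difference between the arms was not called (adjusted p = 0.51). ATP6V1A and ATP6V1C1 were called in neither arm. Deviations of genes from their group means correlated with transcript GC content in every MDA-MB-231 library, with r between -0.76 and 0.81: it was negative in TM-arm replicate 3 (-0.68) and positive in AMD3100-arm replicate 3 (0.70). With a GC correction, chosen after seeing these data, 30 members were called in the TM arm and 29 in the AMD3100 arm, where 59.8% and 55.5% of all genes were called in the TM and AMD3100 arms.

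**Figure D3:**
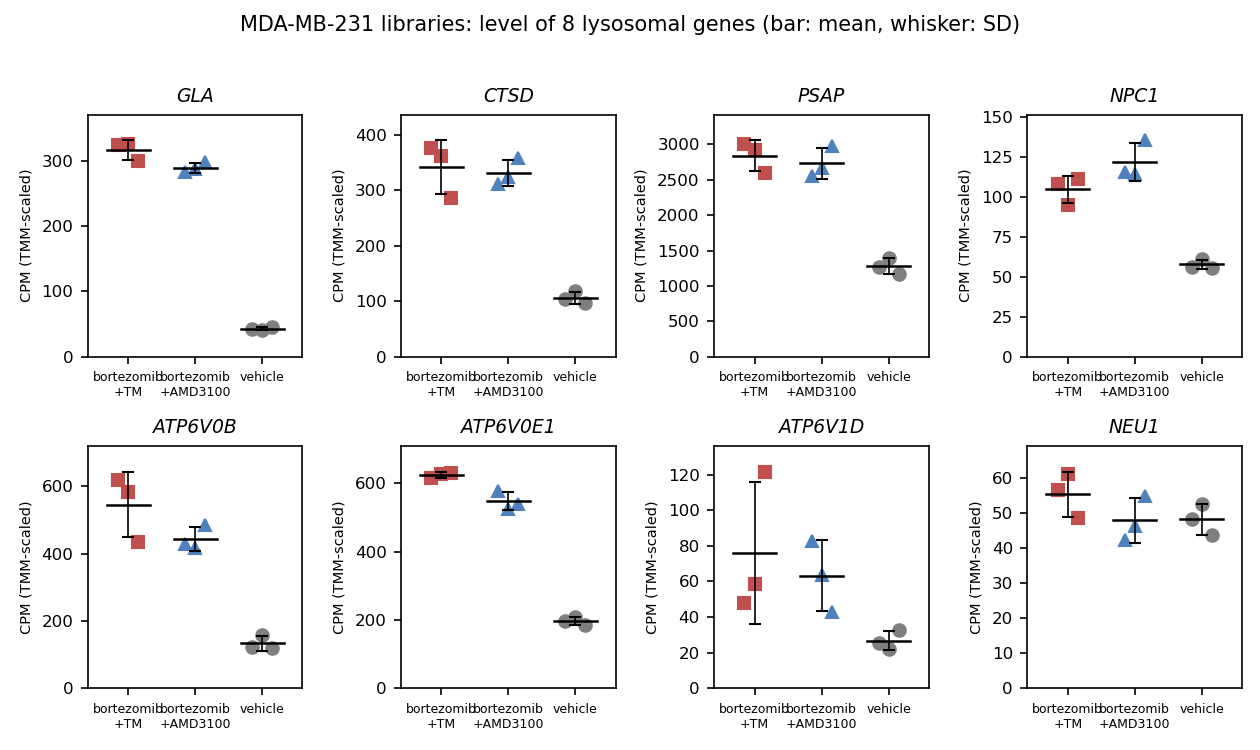
Level in CPM (vertical axis of each panel, starting at 0) of 8 lysosomal genes in the 9 MDA-MB-231 libraries, with 1 point per library; bars are group means and whiskers SDs. GLA, CTSD, PSAP, NPC1, ATP6V0B, ATP6V0E1 and ATP6V1D are higher in every treated library than in every vehicle library, ATP6V1D with wide spread, and NEU1 overlaps between groups.

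Of the 6 membrane proteins, 5 were called higher in both arms. NPC1, which exports cholesterol from the lysosome, had 108, 94.8 and 111 CPM with bortezomib and TM and 116, 114 and 135 CPM with bortezomib and AMD3100, against 56.2, 61.2 and 55.7 CPM with vehicle (log2 changes 0.86 and 1.08 in the TM and AMD3100 arms). LAMP1, CD63, SCARB2 and MCOLN1 were called higher in both arms with log2 changes between 0.49 and 0.86, and LAMP2, the receptor of chaperone-mediated autophagy, was called in neither (log2 changes 0.07 and 0.24). Of the other hydrolases, the cysteine proteases CTSB and CTSL, the galactosidase GLB1 and the hexosaminidase subunit HEXA were called higher in both arms, as was the cofactor NPC2, and CTSA was called higher in the AMD3100 arm (log2 change 0.30). The CTSB call (log2 changes 0.31 and 0.29 in the TM and AMD3100 arms) was lost in 7 of 13 alternative fits in the TM arm and in 10 of 13 in the AMD3100 arm, and the CTSA call in 6 of 13. The accessory protein ATP6AP1 was higher in both arms, with log2 changes of 0.40 with TM and 0.39 with AMD3100. TPP1 had 8.52, 9.80 and 8.59 CPM with bortezomib and TM, against 13.7, 14.3 and 13.1 CPM with vehicle, a log2 change of -0.61 (adjusted p = 0.0055). The accessory protein ATP6AP2 had 14.4, 14.6 and 17.4 CPM with bortezomib and TM, against 24.7, 18.6 and 23.6 CPM with vehicle (log2 change -0.53, adjusted p = 0.016), with the groups apart by a small margin.

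TFE3 had 97.0, 81.6 and 87.3 CPM with bortezomib and TM and 100, 98.9 and 113 CPM with bortezomib and AMD3100, against 56.8, 67.4 and 53.2 CPM with vehicle. Its log2 change was 0.58 (SE 0.12, adjusted p = 0.0014) in the TM arm and 0.82 (SE 0.12, adjusted p = 0.00015) in the AMD3100 arm. TFEB was scarce, with 5.24, 4.91 and 3.66 CPM with bortezomib and TM and 3.72, 3.72 and 3.39 CPM with bortezomib and AMD3100, against 3.09, 4.16 and 3.01 CPM with vehicle, and it was called in neither arm. In the main fits TFEB was thus called only in HCC1937 with AMD3100, and TFE3 in HCC1937 with TM and in both MDA-MB-231 arms. TFEB was also called higher in MDA-MB-231 with bortezomib and TM without TM-arm replicate 3 (adjusted p = 0.037) or vehicle replicate 2 (0.048). In HCC1937 with TM it was called higher without vehicle replicate 3 (adjusted p = 0.033). With AMD3100 replicate 1 in the HCC1937 fit, the TFEB call with AMD3100 and the TFE3 call with TM were lost. The differences between cell lines were not tested.

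Between the MDA-MB-231 arms no member was called, and no gene of the 16498 tested was called by edgeR (0%), while 1464 genes (8.87%) had an unadjusted p under 0.05. DESeq2 called 70 genes and no member. The 4 members with the smallest p are given for their size. ATP6V1F had 61.4, 59.6 and 68.2 CPM with bortezomib and AMD3100 and 88.4, 87.0 and 69.5 CPM with bortezomib and TM (log2 change -0.37, adjusted p = 0.51). ATP6AP2 had 22.8, 19.2 and 19.4 CPM with bortezomib and AMD3100 and 14.4, 14.6 and 17.4 CPM with bortezomib and TM. Neither gene had overlapping groups. ATP6AP2 differed by 0.40, ATP6V0A1 by 0.23 and ATP6V0E1 by -0.19 on the log2 scale. TFE3 differed by 0.23 and TFEB by -0.35.

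Of the 24 members called higher in HCC1937 with TM, 21 were also called higher in MDA-MB-231 with bortezomib and TM, which is 87.5% of the first list and 84% of the second. The matching overlap over all genes was not counted, and the members were chosen with earlier results of these data known. These percentages are therefore a description, and a response shared by the lines was not tested. With AMD3100 replicate 1 in the HCC1937 fit the overlap was 3 of 4. ATP6V1C1, LAMP2 and NEU1 were called higher in HCC1937 alone, and GLB1, HEXA, MCOLN1 and NPC2 in MDA-MB-231 alone. NEU1 had the largest member change in HCC1937 with TM. In MDA-MB-231 NEU1 had 56.6, 61.1 and 48.5 CPM with bortezomib and TM and 42.5, 46.2 and 55.0 CPM with bortezomib and AMD3100, against 48.3, 52.6 and 43.7 CPM with vehicle, with all 3 groups overlapping. MCOLN1 had opposite calls, lower in HCC1937 with TM and higher in MDA-MB-231. TPP1 was lower in both. The cell lines were not tested against each other, since they were counted and scaled separately and their treatments differ.

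The V-ATPase was compared with the hydrolases and membrane proteins through the mean log2 CPM of 15 pump genes minus that of the other 18 (6 membrane proteins, 10 hydrolases and 2 cofactors) in each library. In HCC1937 this difference was -0.57 ± 0.005 with TM, -0.67 ± 0.009 with AMD3100 (n = 2) and -0.62 ± 0.018 with vehicle (SD, n = 3). The pump mean therefore stood 0.05 higher relative to the other class with TM, and 0.05 lower with AMD3100, on the log2 scale, where the pooled SDs were 0.013 and 0.014. Part of the TM shift came from ATP6V0C, a pump gene at or below 1.75 CPM in HCC1937. Its uncalled log2 change with TM was 0.65, the largest of the 15. The shift without ATP6V0C was not computed. With medians over members in place of means, the pump stood 0.08 higher with TM and 0.03 higher with AMD3100, so the AMD3100 shift changed sign. With AMD3100 replicate 1 the AMD3100 value turned to 0.06 higher, and with the GC correction to 0.04 higher. In MDA-MB-231 the difference was -0.93 ± 0.18 with bortezomib and TM, -0.97 ± 0.20 with bortezomib and AMD3100, and -1.10 ± 0.11 with vehicle (SD, n = 3 each). The shift of 0.17 with TM was slightly above the pooled SD of 0.15, and that of 0.13 with AMD3100 was below the pooled SD of 0.16. In 4T1 it was -1.66 ± 0.10, -1.75 ± 0.06 and -1.74 ± 0.04 in the bortezomib and TM, bortezomib and AMD3100 and vehicle groups (SD, n = 3 each). Leaving out 1 library, the shift ranged from 0.07 to 0.24 with TM and from 0.03 to 0.23 with AMD3100 in MDA-MB-231. The tumour shift was 0.08 with TM (0.04 to 0.13 leaving out 1 tumour), where the pooled SD was 0.07, and -0.01 with AMD3100, where it was 0.05. No test was made on these scores, since they are built from the chosen members.

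In HCC1937 with TM, 12 of 15 pump genes and 11 of 18 others were called higher, with medians of 0.23 and 0.19 for the pump and the others, and 0 of 15 and 3 of 18 were called lower. The fit with AMD3100 replicate 1 had 2 of 15 and 2 of 18 called higher. In HCC1937 with AMD3100 the medians were -0.01 for the pump and 0.03 for the others, with none called higher in either class. In MDA-MB-231 the counts were 11 of 15 and 13 of 18 with bortezomib and TM (medians 0.85 and 0.66), and 10 of 15 and 14 of 18 with bortezomib and AMD3100 (medians 0.89 and 0.60). V0 subunits had the highest median of any sublist in MDA-MB-231, 1.16 in the TM arm and 1.08 in the AMD3100 arm, against 0.92 and 0.88 for V1, 0.66 and 0.67 for membrane proteins, and 0.62 and 0.51 for hydrolases and cofactors. The differences between these medians were not tested.

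**Figure D4:**
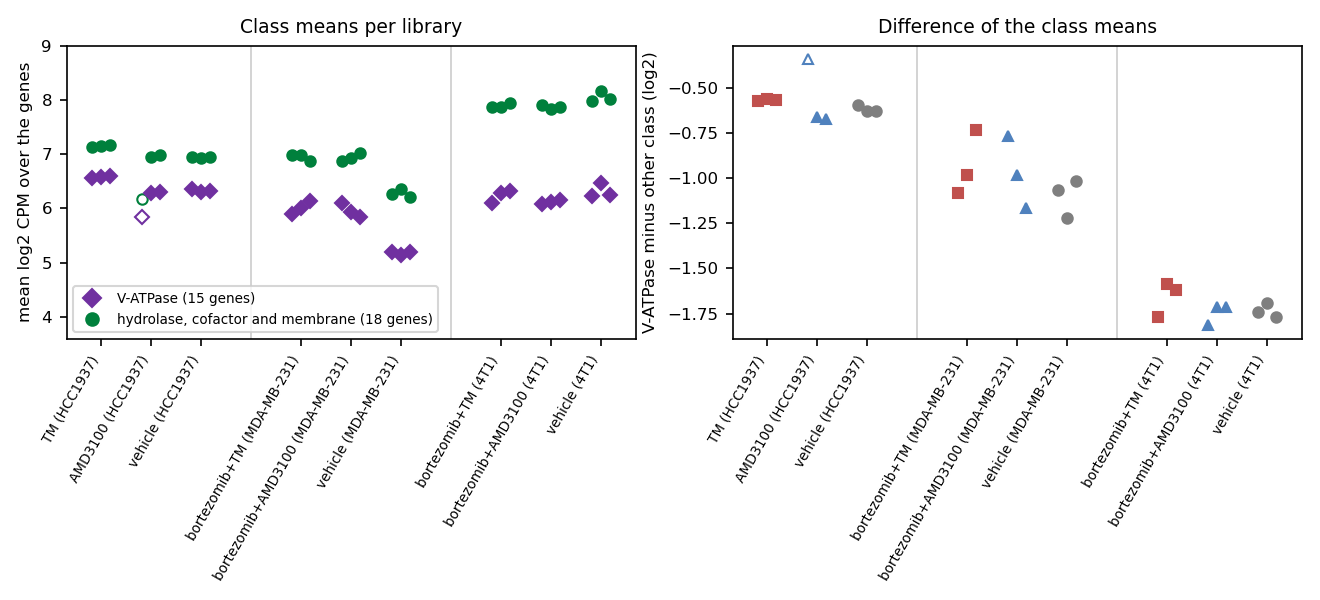
Left, mean log2 CPM of the 15 V-ATPase genes (diamonds) and of the 18 hydrolase, cofactor and membrane genes (circles) in each library of the 9 groups; right, the first minus the second, with squares for TM arms, triangles for AMD3100 arms and grey circles for vehicle. Open symbols are HCC1937 AMD3100 replicate 1; both classes are higher in the treated MDA-MB-231 libraries than in vehicle, while the right-hand differences overlap between groups in MDA-MB-231 and 4T1.

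ATP6V0C, the main proteolipid of the V0 ring, could not be measured well. It stood between 0 and 1.75 CPM in HCC1937 and between 0.225 and 0.564 CPM in MDA-MB-231, while ATP6V0B of the same ring exceeded 100 CPM in every library. Per kilobase of the exon length in the human tables it was the lowest of the 35 members in vehicle cells of both lines. In the GENCODE 29 annotation 57.5% of its exon bases are shared with a second feature on the same strand, ENSG00000260272, and 14.6% with ENSG00000259784, and both of these had a median of 0 counts. How the counting treated shared stretches is not recorded, so its level and its uncalled changes are uncertain. The mouse ortholog Atp6v0c was also low, at 1.15 to 2.44 CPM in the tumours, and is among the 15 pump genes of the 4T1 score. CTSD shares 41.7% of its exon bases with a same-strand feature, and ATP6V1D shares 6.33% with EIF2S1 on the opposite strand; whether strand was used in counting is not recorded either.

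The 4T1 tumours showed no called change in any lysosomal gene. None of the 35 mouse orthologs was called in either comparison with vehicle, where edgeR called 0% of the 15846 genes tested, although 688 genes with TM (4.34%) and 1144 with AMD3100 (7.22%) had an unadjusted p under 0.05. DESeq2 called 3 genes with TM and 17 with AMD3100, none of them a member. The member SEs had a median of 0.13 on the log2 scale in both comparisons, as in MDA-MB-231. In tumours, fewer cells of a type and less RNA per cell cannot be told apart.

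Point estimates in tumours ran downward. With bortezomib and AMD3100, 33 of 35 members had a negative log2 change (median -0.15), and with bortezomib and TM 26 of 35 (median -0.10), against medians of 0.01 and 0.00 over all genes tested. The cysteine protease Ctsb had 1350, 1131 and 1203 CPM with bortezomib and TM and 1177, 1068 and 1181 CPM with bortezomib and AMD3100, against 1406, 1556 and 1450 CPM with vehicle. All 6 treated tumours lay below all 3 vehicle tumours, with log2 changes of -0.26 (SE 0.12, adjusted p = 0.89) and -0.36 (SE 0.12, adjusted p = 0.63) in the TM and AMD3100 arms. Ctsl had 833, 860 and 990 CPM with bortezomib and AMD3100, against 1097, 1690 and 1014 CPM with vehicle (log2 change -0.50, SE 0.21, adjusted p = 0.63); the groups did not overlap, but 1 vehicle tumour, replicate 2, was far above the other two.

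Lamp1 had 692, 711 and 648 CPM with bortezomib and AMD3100, against 764, 978 and 753 CPM with vehicle (log2 change -0.28, adjusted p = 0.63). Lamp2 had 166, 203 and 213 CPM with bortezomib and AMD3100, against 259, 307 and 189 CPM with vehicle (log2 change -0.38, adjusted p = 0.63). Lamp1 groups were apart and Lamp2 groups overlapped. Leaving out 1 tumour, the change ranged from -0.64 to -0.24 for Ctsl and from -0.35 to -0.15 for Lamp1, with the smallest changes without vehicle replicate 2. Npc1 had 53.6, 38.2 and 45.9 CPM with bortezomib and TM, against 52.2, 65.3 and 55.9 CPM with vehicle (log2 change -0.33), and its groups overlapped. Atp6v1f had 59.4, 66.3 and 68.2 CPM with bortezomib and TM, against 69.7, 87.3 and 71.2 CPM with vehicle (log2 change -0.23). Mcoln1 had 50.7, 46.9 and 52.5 CPM with bortezomib and TM, against 53.3, 68.4 and 55.5 CPM with vehicle (log2 change -0.24). The groups of Atp6v1f and Mcoln1 were narrowly apart, and all 3 genes had an adjusted p of 0.89. Tfeb had 37.7, 24.4 and 21 CPM with bortezomib and TM and 44.1, 19.8 and 33.1 CPM with bortezomib and AMD3100, against 30.2, 18.8 and 30.9 CPM with vehicle, so all groups overlapped. Tfe3 had 62.4, 53.8 and 60.7 CPM with bortezomib and TM and 66.0, 61.2 and 62.4 CPM with bortezomib and AMD3100, against 66.6, 80.2 and 60.4 CPM with vehicle, also overlapping. Members whose 3 treated tumours all lay below the 3 vehicle tumours numbered 5 of 35 with TM and 7 of 35 with AMD3100. Over all genes this held for 794 of 15846 (5.01%) with TM and 1163 of 15846 (7.34%) with AMD3100. Both member shares were above those over all genes, and the difference was not tested. The 5 with TM include the scarce Atp6v0c, at 1.15 to 1.79 CPM with bortezomib and TM against 2.08 to 2.44 CPM with vehicle.

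Lysosomal genes are abundant in macrophages, and markers of other cells moved with the groups. The 8 macrophage markers summed to 1128 to 1817 CPM with bortezomib and TM and 1376 to 1761 CPM with bortezomib and AMD3100, against 2018 to 2193 CPM with vehicle, with no overlap. Epithelial markers summed to 1026 to 1840 CPM with bortezomib and TM and 952 to 1219 CPM with bortezomib and AMD3100, against 1425 to 2361 CPM with vehicle. Summed B cell markers spread between 1.58 and 582 CPM over the 9 tumours, and neutrophil markers lay lower in the AMD3100 arm (38.4 to 82.4 CPM) than in vehicle (86.6 to 119 CPM). No macrophage or epithelial marker was at 0 in any tumour. The part of cell composition in the lysosomal values was not tested, beyond a fit with the B cell marker level as a term, in which again no member was called.

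**Figure D5:**
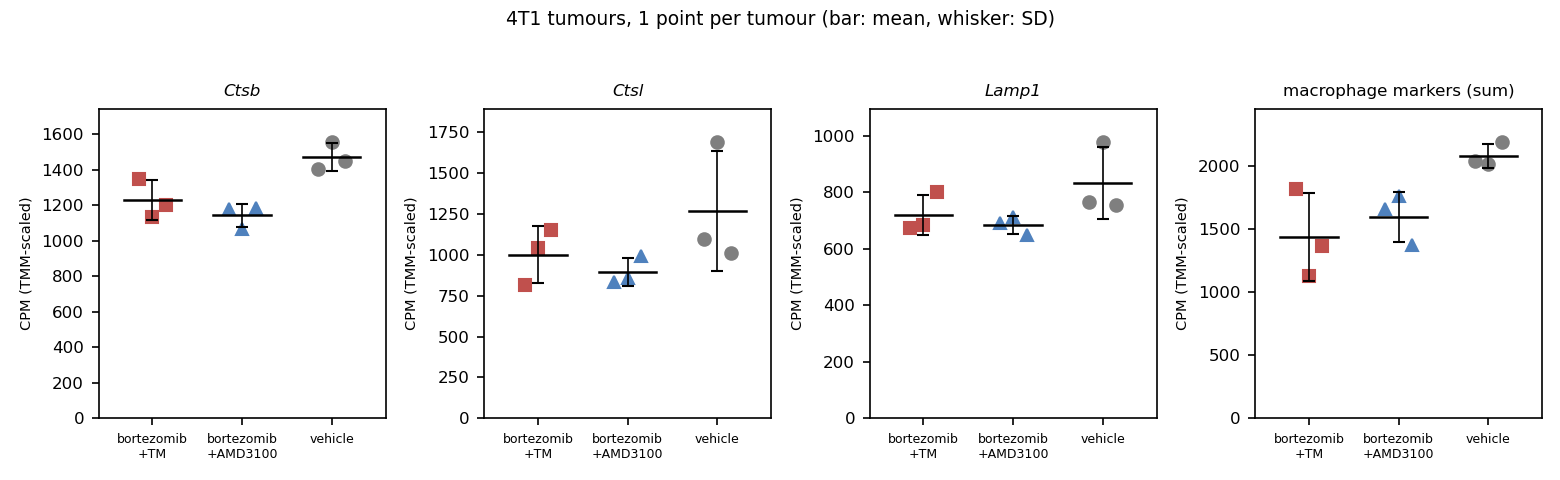
Level in CPM (vertical axes, starting at 0) of Ctsb, Ctsl and Lamp1 and the summed level of 8 macrophage markers in the 9 tumours of 4T1, with 1 point per tumour; bars are group means and whiskers SDs. Ctsb and the macrophage sum are lower in every treated tumour than in every vehicle tumour.

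Between the tumour arms no gene was called (0%, with 454 genes, 2.87%, at an unadjusted p under 0.05, and 6 genes called by DESeq2, none a member). The 4 members with the smallest p were Npc1 (log2 change 0.31), Atp6v1h (-0.17), Atp6v1e1 (-0.20) and Atp6v1a (-0.17), each with an adjusted p of 0.996.

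Of 33 other lysosomal hydrolases tested in HCC1937, 6 were called higher and 15 lower with TM, with a median log2 change of -0.16, where 19.4% of all genes were called higher and 21.4% lower. Refitted with AMD3100 replicate 1, 3 were called higher and 5 lower. SMPD1, the acid sphingomyelinase, averaged 65.1 ± 1.2 CPM with TM and 30.4 ± 1.2 CPM with vehicle (SD, n = 3 each, log2 change 1.10, adjusted p = 4.64e-14). NAGLU, a heparan sulphate glucosaminidase, averaged 30.8 ± 1.7 CPM with TM and 60.7 ± 1.2 CPM with vehicle (log2 change -0.98). In MDA-MB-231, 4 of 34 other hydrolases were called higher and 16 lower with bortezomib and TM, and 5 higher and 12 lower with bortezomib and AMD3100. The shares over all genes were 24.1% higher and 27.6% lower with TM, and 22.3% higher and 24.2% lower with AMD3100. NAGLU was lower with bortezomib and AMD3100, where it averaged 6.61 ± 0.22 CPM, against 22.3 ± 2.2 CPM with vehicle (SD, n = 3 each, log2 change -1.76). LGMN, the asparaginyl endopeptidase, was higher in both arms (log2 changes 1.18 and 1.2), and the lysosomal nuclease DNASE2 was higher in the TM arm (1.40). In this and the following lists, genes given for 1 MDA-MB-231 arm were picked by their p in that arm. They are not shown to differ between the arms, where edgeR called no gene.

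Of 15 other V-ATPase and assembly genes tested, 1 was called higher and 4 lower in HCC1937 with TM, 3 higher and 5 lower in MDA-MB-231 with bortezomib and TM, and 2 higher and 3 lower with bortezomib and AMD3100. These counts are near the shares over all genes given above, and with AMD3100 replicate 1 in the HCC1937 fit 0 were called higher and 1 lower. The alternative a2 subunit ATP6V0A2 was lower in all 3 comparisons, by -0.51, -0.73 and -0.68 on the log2 scale, where the a1 subunit gene ATP6V0A1 was higher. VMA21, an assembly factor of V0, was lower with bortezomib and TM (-0.94). The two-pore channel gene TPCN1 was lower in HCC1937 with TM (-0.46) and in both MDA-MB-231 arms (-1.81 and -1.70 with TM and AMD3100), and higher in HCC1937 with AMD3100 (0.28).

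Among genes of mTORC1 and TFEB control, 8 of 17 were called higher and 3 lower in HCC1937 with TM. Over all genes 19.4% were called higher and 21.4% lower there. In MDA-MB-231 with bortezomib and TM 5 of 18 were called each way, near the shares over all genes (24.1% higher and 27.6% lower). With AMD3100 replicate 1 in the HCC1937 fit 1 was called higher and 2 lower. FLCN, a GTPase-activating protein for the Rag GTPases that acts on TFEB and TFE3, averaged 39.4 ± 1.3 CPM with TM and 21.1 ± 1.4 CPM with vehicle in HCC1937 (log2 change 0.90). MTOR itself was lower there (-0.60). In MDA-MB-231 RRAGA, one of the Rag GTPases, was lower in both arms (-1.09 and -1.26 with TM and AMD3100), and LAMTOR3 of the Ragulator scaffold was higher with bortezomib and TM (2.26).

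Genes of the response to lysosome damage were called higher more often than lower: 5 of 7 higher and 1 lower in HCC1937 with TM, and 5 of 6 higher and none lower in each MDA-MB-231 arm, where 19.4% of all genes were called higher in HCC1937 and 24.1% and 22.3% in the MDA-MB-231 TM and AMD3100 arms. None of the 7 was called in HCC1937 with AMD3100 replicate 1 in the fit. TRIM16, a ubiquitin ligase scaffold recruited to damaged lysosomes through galectins, had log2 changes of 0.43 in HCC1937 with TM and of 1.61 and 1.67 in MDA-MB-231 with TM and AMD3100 added to bortezomib. Of 10 sorting receptor genes tested in MDA-MB-231, 2 were called higher and 6 lower with bortezomib and TM, where 24.1% and 27.6% of all genes were called higher and lower. The cation-dependent mannose 6-phosphate receptor gene M6PR averaged 226 ± 11 CPM with bortezomib and TM and 197 ± 5.6 CPM with bortezomib and AMD3100, against 97.2 ± 0.98 CPM with vehicle (SD, n = 3 each). In the 4T1 tumours no gene of these 6 other lists was called in any comparison.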

How the data were processed

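The authors deposited 1 table of gene-level read counts per dataset, each with 9 library columns. The submitters' processing notes name featureCounts 2.0.1, MultiQC 1.11 and the builds GRCh38 and GRCm38; the labels' protocols give Trizol extraction and poly(A) selection. Aligner, annotation version, strand setting and whether pairs or mates were counted: not given in the sources used here. Of counts from 1 to 20, 56.9% to 66.1% were even.

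Each dataset was fitted alone with edgeR 4.0.16 in R 4.3.3 (filterByExpr, TMM scaling, 1 coefficient per group, quasi-likelihood F tests, Benjamini-Hochberg adjustment over all genes tested, calls at an adjusted p under 0.05). Log2 CPM used a prior count of 2. Levels are CPM scaled with the factors of the fit; HCC1937 AMD3100 replicate 1, outside the fit, was put on that scale through TMM factors over all 9 libraries. Alternatives used DESeq2 1.42.0, limma 3.58.1 and the settings in the closing section. The fit was tested on simulated data.

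The members and lists were chosen with earlier results of these data known. The genes named were TFEB and TFE3, the 8 called members with the largest change in each comparison with vehicle (6 between the HCC1937 arms), or the 4 with the smallest p where fewer than 3 were called; other members named were chosen after their values were seen. From each of 6 other lists (111 genes), the 2 called genes with the smallest p were eligible. Human positions are from GENCODE 29; mouse symbols were used as given. 1 vehicle tumour carries another dataset's species and cell line in some labels and was kept by its title, library name and column. No 2 libraries of the same group had identical counts.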

Additional observations from a re-analysis of the deposited data

Results flagged for a closer look

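Some orthologs lay above vehicle in every treated MDA-MB-231 library and below vehicle in every tumour given the same agents. The difference between cells and tumours was not tested, and the species, doses and schedules differ. Of the 35 members, 26 (TM arm) and 25 (AMD3100 arm) lay wholly above vehicle in MDA-MB-231. The share of all genes that did so is not given here. In the tumours 5 (TM arm) and 7 (AMD3100 arm) lay wholly below vehicle, as did 5.01% and 7.34% of all genes in the TM and AMD3100 arms. How many of all orthologs show the opposite pattern was not counted. Whether the genes below exceed what these counts alone would give was not tested. With bortezomib and TM, the log2 change in tumours was -0.23 for Atp6v1f, -0.24 for Mcoln1 and -0.26 for Ctsb, where the cells had 0.63, 0.50 and 0.31 for the same genes in that order. With bortezomib and AMD3100, it was -0.13 for Atp6v1b2, -0.22 for Atp6v1e1, -0.28 for Lamp1, -0.35 for Cd63, -0.36 for Ctsb and -0.50 for Ctsl, where the cells had 0.93, 0.89, 0.68, 0.72, 0.29 and 0.85. None of these tumour values passed the test across all genes, and the tumours' macrophage markers were lower in every treated tumour than in every vehicle tumour.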

How the results depend on the processing

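Counts of members called in MDA-MB-231 and 4T1 stayed within 1.5 times of those reported under every setting tried, and no called member changed direction in a comparison with vehicle. With HCC1937 AMD3100 replicate 1 in the fit, the members called fell to 4 for TM against vehicle, 0 for AMD3100 against vehicle and 6 for AMD3100 against TM, and ATP6V1F (-0.11), CTSD (-0.25) and TFE3 (-0.12) turned negative in AMD3100 against vehicle. Of the members called between the HCC1937 arms, ATP6V1H changed sign in that fit (0.03). AMD3100 against vehicle in HCC1937 had 4 members called with the GC correction (660 genes in all, against 1661), 1 at an adjusted p under 0.01 (628 genes), and 1 to 3 leaving out 1 library. The pump minus the other class moved in HCC1937 to 0.106 (TM), 0.0365 (AMD3100) and -0.0696 (AMD3100 against TM) with the GC correction, to 0.0786, 0.0278 and -0.0508 with medians over members, and to 0.0558 (AMD3100) and 0.0060 (AMD3100 against TM) with AMD3100 replicate 1; for 4T1 with AMD3100 it was 0.0484 with medians. Leaving out 1 library, it ranged from -0.14 to 0.061 between the MDA-MB-231 arms and from -0.030 to 0.022 for 4T1 with AMD3100. TFEB in MDA-MB-231 with AMD3100 ranged from -0.0037 to 0.25 leaving out 1 library. Tfeb in 4T1 was -0.20 with TM and -0.092 with AMD3100 when the B cell marker level, also chosen after seeing the data, entered the model. Leaving out 1 tumour gave it -0.22 to 0.22 with TM, -0.0070 to 0.52 with AMD3100 and -0.065 to 0.48 between the arms. The cause was not tested. Same-numbered libraries were not paired (correlations of their deviations ran from -0.82 to 0.74); a replicate block gave 27, 2 and 23 members called in HCC1937, 26, 23 and 0 in MDA-MB-231 and 0 in 4T1. Leaving out 1 library gave 24 to 27 and 19 to 23 members called for HCC1937 TM against vehicle and AMD3100 against TM, and 23 to 29 and 21 to 26 for the MDA-MB-231 TM and AMD3100 arms. The median member SE of 0.13 in 4T1, against 0.048 for HCC1937 with TM, limits what the tumours can show. It was also 0.13 in both MDA-MB-231 comparisons with vehicle, where 27 (TM arm) and 26 (AMD3100 arm) members were called. Over all genes the replicate spread differed, with a common biological coefficient of variation of 0.32 in 4T1 and 0.20 in MDA-MB-231. The adjusted p also depends on all genes tested, so equal member SEs do not make the 2 tests alike. The reason for the lack of calls in tumours was not tested.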
